A study of Mus musculus with 37 samples.

Results

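Streptozotocin (STZ) diabetic podocytes at 24 weeks were studied in 10 of the 37 libraries of the series, chosen by their labels alone and read across all genes. In 5 libraries the RNA came from podocyte ribosomes of C57BL/6 mice with type 1 diabetes, aged 8 months, at 24 weeks of STZ. The other 5 came from C57BL/6 mice of the same age that received no STZ. Other groups used below are STZ mice at 3 weeks (5 libraries) with their untreated mice (4 libraries), all C57BL/6 and aged 3 months, and a type 2 model at 6 months, in which eNOS-/- db/db mice (3 libraries) were set against eNOS-/- mice (4 libraries), both C57BL/6, so both lack eNOS. Podocyte enrichment was taken from 5 podocyte ribosome libraries of eNOS-/- mice and 1 whole-kidney library of the type 2 model's controls, all aged 3 months. These mice differ in age and eNOS from the mice at 24 weeks. A fit of all 36 podocyte libraries also holds 5 libraries of diabetic mice of the type 2 model aged 3 months. Within the type 1 model every diabetic mouse had STZ and no control mouse did, so effects of the drug and of diabetes cannot be told apart. The title of the deposited data states a Cre under a podocyte promoter. The labels state neither the sex of the mice, nor the ribosomal tag, nor whether each library is a separate animal, so each p-value reflects library-to-library spread, which may be technical.

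Podocytes cover the outside of the glomerular capillaries, where blood is filtered. Their foot processes are joined by the slit diaphragm, built around nephrin, and they are lost or flattened in diabetic kidney disease. Translating ribosome affinity purification (TRAP) pulls down tagged ribosomes of 1 cell type with the RNA they carry. STZ enters cells through a glucose transporter and destroys the insulin-producing beta cells of the pancreas. The proximal tubule, which begins at the glomerulus and forms most of the cortex, reabsorbs glucose and handles drugs and steroids; many of its genes depend on androgens in the mouse.

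Total counts were 10720194 to 18243370 per diabetic library and 14126122 to 17374563 per untreated library, with 16023 to 21290 genes above 0. Ribosomal RNA (Rn18s-rs5) accounted for 7.13 to 18.4% of counts and the mitochondrial chromosome 0.429 to 1.21%. All 10 libraries carried Ddx3y of the Y chromosome (474 to 1484 counts) and 9 or fewer counts of Xist. On the first principal component of the 10 libraries, which held 39.5% of the variance, diabetic libraries 3, 1 and 2 (at -45.4, -30.8 and -19.9) lay apart from diabetic library 4 at 19.6 and untreated libraries 1 and 5 at 29.7 and 27.3. Diabetic libraries 3 and 1 also had the lowest sums of podocyte genes, so counts are given again without both of them.

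At 24 weeks, edgeR's quasi-likelihood test with Benjamini-Hochberg adjustment called 146 of 16279 genes (0.897%) at an adjusted p under 0.05. Of these, 73 were higher in diabetic libraries (0.448%) and 73 were lower (0.448%). The genes that rose included drug-conjugating and fatty acid enzymes, interferon-induced genes, complement C3 and p53 targets, and the genes that fell were led by androgen-regulated and other proximal tubule genes. An absolute log2 change of at least 1 was seen in 119 of the 146 genes, and 142 were protein coding. In 53 of the higher and 65 of the lower genes the libraries of the 2 groups did not overlap, which held for 257 (1.58%) and 271 (1.66%) of all genes tested. Another 1599 genes had an unadjusted p under 0.05 without being called (1745 in all, 10.7%; 1022 higher, 6.28%, and 723 lower, 4.44%). Leaving out 1 library moved these counts. The test called 33 higher and 41 lower without diabetic library 2, 25 and 44 without diabetic library 3, 169 and 93 without diabetic library 4, and 40 and 39 without diabetic library 5. It called 36 higher and 65 lower without untreated library 1, 37 and 39 without untreated library 2, 28 and 39 without untreated library 3, and 35 and 64 without untreated library 5. Without diabetic libraries 1 and 3 together it called 17 higher and 45 lower.

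The lowest p among higher genes belonged to Acsf2, an acyl-CoA synthetase (chromosome 11, 94557102 to 94601871 on GRCm38). It was at 80.6, 115, 131, 50.8 and 74.9 CPM in diabetic libraries 1 to 5 and at 20.3, 24.4, 16.6, 34.6 and 31.3 CPM in untreated libraries 1 to 5. Every diabetic library was above every untreated one, and the log2 change was 1.83 (SE 0.23, adjusted p = 0.000723). Part of Acsf2 overlaps Chad on the opposite strand, and the counting is not stated to use strand, so their reads cannot be told apart there. Among lower genes the lowest p belonged to C1qtnf3, a secreted protein of the C1q and TNF family (chromosome 15, 10952332 to 10980150). It was at 4.85, 4.81, 4.71, 5.20 and 4.84 CPM in diabetic libraries 1 to 5 and at 13.9, 23.3, 13.7, 18.4 and 12.2 CPM in untreated libraries 1 to 5. The diabetic values lay within 1 CPM of each other and below all untreated values, with a log2 change of -1.74 (SE 0.22, adjusted p = 0.000752).

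**Figure D1:**
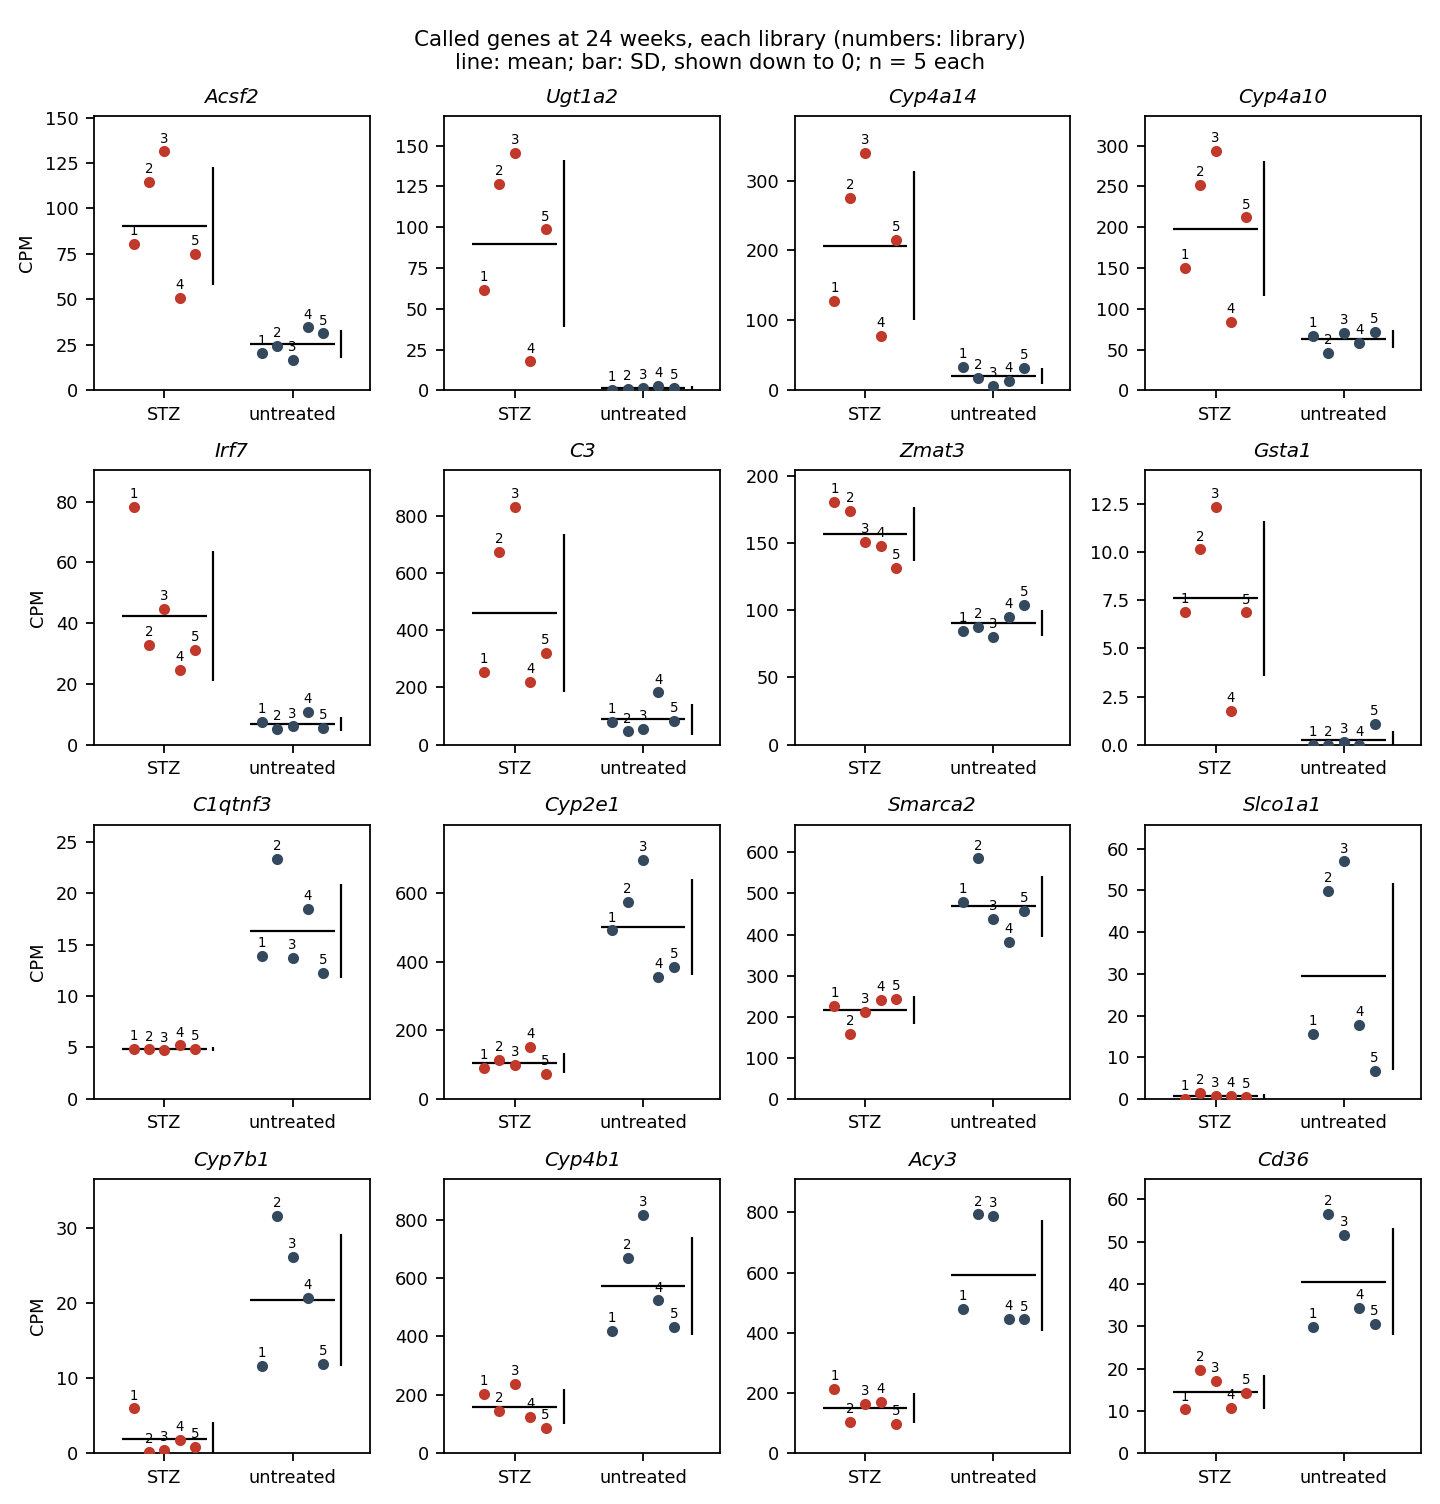
CPM (vertical axis, from 0) of 16 called genes in each of the 5 STZ and 5 untreated libraries at 24 weeks; points are libraries with their numbers, lines are means and bars SD. The first 8 genes are higher in STZ libraries and the other 8 lower, with no overlap between the groups in these genes. Diabetic library 4 is the lowest STZ library for Acsf2 (50.8 CPM), Ugt1a2 (17.7), Cyp4a14 (77.3), Cyp4a10 (83.6), Irf7 (24.5), C3 (219.5) and Gsta1 (1.73).

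No gene of podocyte identity passed the test at 24 weeks. The 5 lists of slit diaphragm, surface and secreted, transcription factor, actin and basement membrane genes held 104 tested genes, of which 0 were called higher and 0 lower, against 0.897% of all genes. The median log2 change over the 104 genes was -0.16, against -0.01 over all genes tested, and 69 of them were negative. At an unadjusted p under 0.05 there were 11 of 104, against 10.7% of all genes. By both counts the podocyte lists were near the share over all genes. Limma on log2 FPKM called 0 of them and 141 of all genes (0.866%; 58 higher, 0.356%, and 83 lower, 0.51%). DESeq2, which called 429 of 12805 genes (3.35%; 251 higher, 1.96%, and 178 lower, 1.39%), called 1 of them, Lamc1 of the laminin network, with a log2 change of 0.39 (DESeq2 adjusted p = 0.0345); in edgeR its log2 change was 0.39 (adjusted p = 0.144).

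Nphs1, the nephrin gene (chromosome 7, 30458315 to 30487223), was at 448, 585, 332, 986 and 1238 CPM in diabetic libraries 1 to 5 and at 1299, 701, 999.9, 1010 and 1303 CPM in untreated libraries 1 to 5. Diabetic libraries 1, 2 and 3 were below every untreated library, and diabetic libraries 4 and 5 were within the untreated range; the log2 change was -0.57 (SE 0.31, adjusted p = 0.561). Wt1, a transcription factor required to keep podocytes differentiated, was at 435, 889.8, 334, 1079 and 1081 CPM in diabetic and 1764, 605, 989.9, 896 and 1714 CPM in untreated libraries, with a log2 change of -0.64 (SE 0.35, adjusted p = 0.558). The sialomucin Podxl had -0.35 (adjusted p = 0.829), the actin regulator Synpo -0.38 (0.824) and the transcription factor Lmx1b -0.73 (0.287) as log2 changes with edgeR adjusted p in brackets. For Wt1, Podxl, Synpo and Lmx1b, diabetic libraries 1 and 3 were below every untreated library. Nphs1 and Lmx1b overlap genes of the opposite strand (Nphs1os and Gm38011).

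The summed level of the 104 podocyte genes was 32539, 41048, 25034, 61413 and 61814 CPM in diabetic libraries 1 to 5 and 62543, 37144, 47817, 50606 and 64948 CPM in untreated libraries 1 to 5. Diabetic library 3 was the lowest of the 10, while diabetic libraries 4 and 5 were above untreated libraries 2, 3 and 4 and below untreated libraries 1 and 5. Without diabetic libraries 1 and 3 the median log2 change of the 104 genes was 0.10 and 0 were called. Leaving out each library in turn gave medians of -0.29 to -0.02. In such bulk samples, fewer podocytes and less RNA per podocyte cannot be told apart. By list, the median log2 change was -0.35 for surface and secreted proteins (21 of 23 negative), -0.31 for transcription factors (11 of 15 negative) and -0.20 for the slit diaphragm (13 of 17 negative). It was -0.08 for the actin cytoskeleton and 0.20 for the basement membrane and its receptors. Without diabetic libraries 1 and 3 the slit diaphragm median was 0.06, the surface protein median 0.03 and the actin median 0.08, all of the opposite sign. These libraries had the lowest podocyte sums of the 10, so higher podocyte medians without them follow from that choice.

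Rpl10a, which encodes the ribosomal protein commonly tagged in TRAP, was at 70.1, 116, 76.3, 167 and 165 CPM in diabetic and 224, 132, 154, 180.4 and 216 CPM in untreated libraries. Diabetic libraries 1, 2 and 3 were below all untreated libraries, and the log2 change was -0.61 (SE 0.28, adjusted p = 0.415). Of 36 cytosolic ribosomal protein genes, 35 were negative with a median of -0.28, and 0 were called. The strongest of them was Rpl13, at -0.57 on the log2 scale (adjusted p = 0.140).

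**Figure D2:**
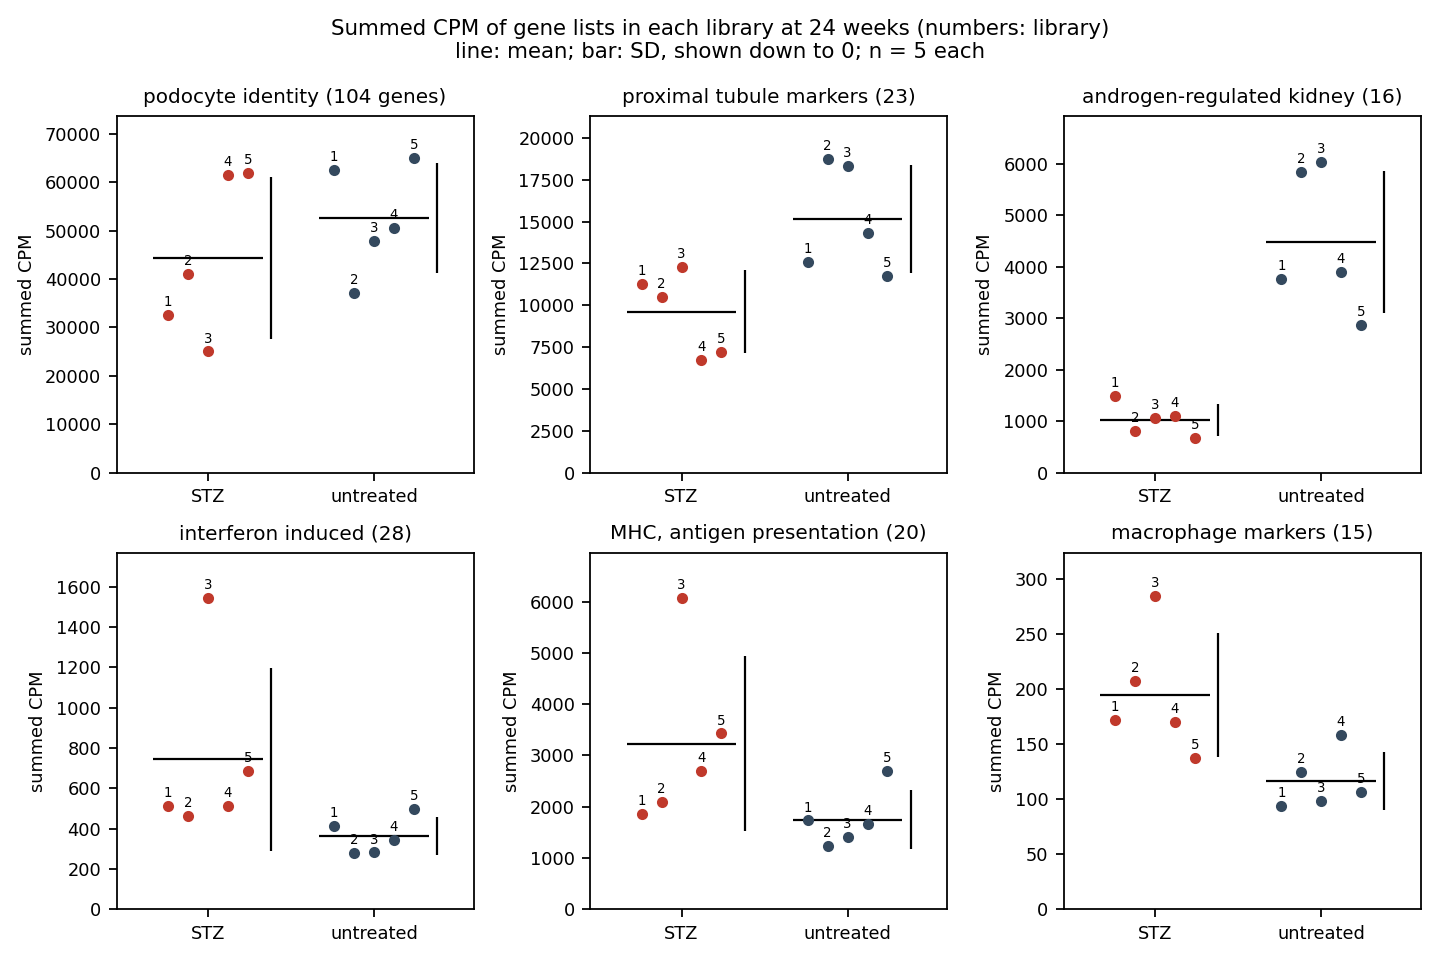
Summed CPM (vertical axes, from 0) of 6 gene lists in each STZ and untreated library at 24 weeks; points are libraries with their numbers, lines are means and bars SD (n = 5 each). Podocyte sums overlap between the groups, sums of androgen-regulated genes do not (671.7 to 1490 against 2870 to 6029 CPM), and diabetic library 3 is the highest for the interferon, antigen presentation and macrophage lists.

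Most called genes were lower in the pull-down than in whole kidney. TRAP enrichment was taken as the CPM ratio of 5 TRAP libraries of eNOS-/- mice at 3 months to 1 whole-kidney library, so it has no test. Of 8238 genes with a ratio under 1, 59 were called higher and 70 lower (1.57%), and of 8041 genes with a ratio of 1 or above, 14 were called higher and 3 lower (0.211%). Between ratios of 0.25 and 0.5, where 20 of the 23 proximal tubule markers lie, 19 of 1322 genes were called higher and 44 lower (4.77%). At a ratio of 4 or above, which takes in Nphs1 (ratio 112) and Wt1 (134), 0 of 632 genes were called by edgeR. Among these 632 genes, 48 had an unadjusted edgeR p under 0.05 (42 of them lower), against 10.7% of all genes tested (4.44% lower). Of the 632, 506 were negative, against 8391 of all 16279, and the median log2 change was -0.25, against -0.01. DESeq2 called 4 of them, all lower: Metrnl (-0.96), Kcnf1 (-1.41), Mafa (-1.70) and Lingo1 (-2.24 on the log2 scale, adjusted p from 0.0066 to 0.0281), named after their values were seen. Limma on log2 FPKM plus 1 called 2 of the 632. Over all genes DESeq2 called 3.35% and limma 0.866%. The lowest edgeR adjusted p among the 632 was that of Metrnl, a secreted factor, at 0.0525.

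Metrnl was at 22.9, 46, 20.8, 51 and 48.9 CPM in diabetic libraries 1 to 5 and at 79.3, 56.5, 86.1, 53.3 and 95.6 CPM in untreated libraries 1 to 5. All diabetic libraries were below all untreated ones, and the edgeR log2 change was -0.97 (SE 0.24). Without diabetic libraries 1 and 3, which had the lowest podocyte sums, it was -0.595 (edgeR adjusted p = 0.353). In that fit Kcnf1 had -1.27 (edgeR adjusted p = 0.409), Mafa -1.28 (0.467) and Lingo1 -1.71 (0.478). The counts over the 632 genes with a ratio of 4 or above were not taken again without these 2 libraries.

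**Figure D3:**
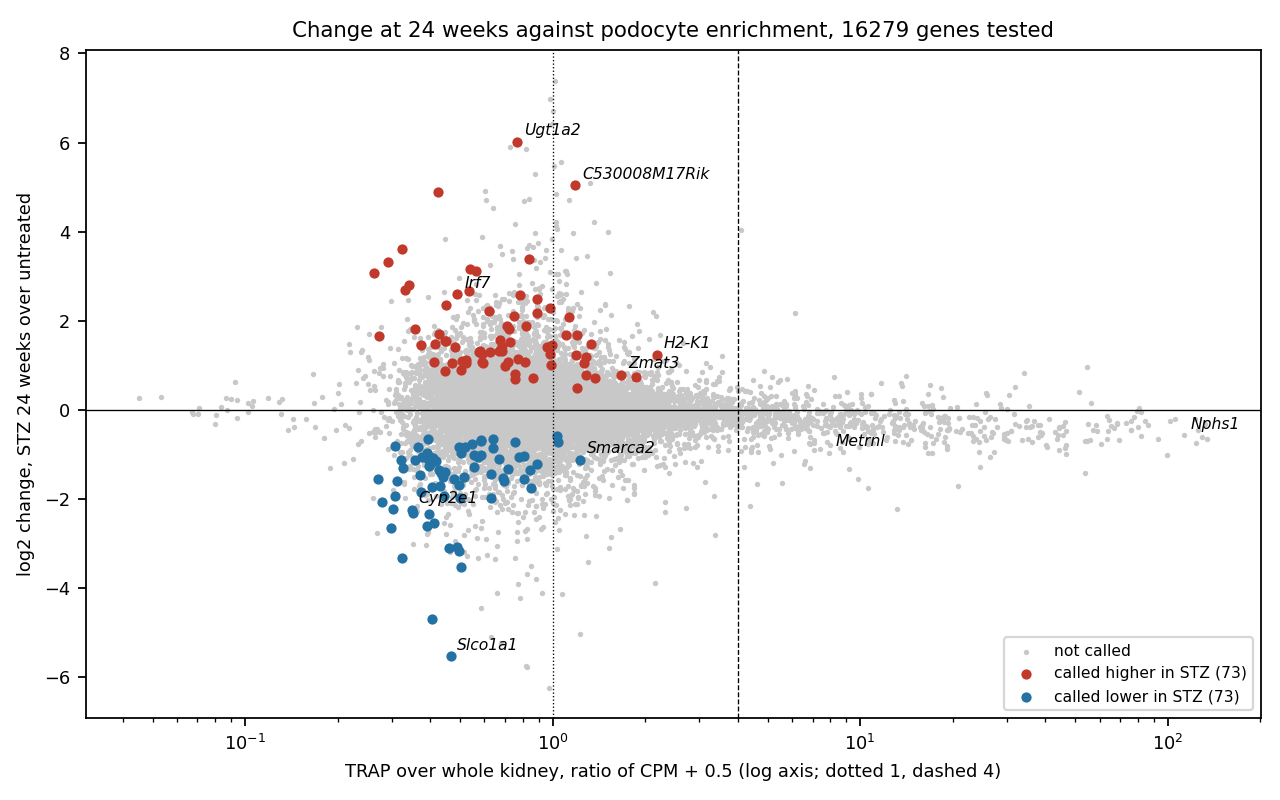
Log2 change at 24 weeks of STZ over untreated (vertical axis) against the ratio of CPM in TRAP to whole kidney (horizontal log axis) for the 16279 genes tested; coloured points are the 73 genes called higher and 73 called lower. Called genes lie mainly at ratios under 1, and none lies to the right of the dashed line at 4, where Nphs1 is.

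Of the 17 called genes with a TRAP ratio of 1 or above, chosen for description after their values were seen, Smarca2 had the lowest p. Smarca2 encodes BRM, an ATPase of the SWI/SNF chromatin remodelling complex (chromosome 19, 26605115 to 26778321). It was at 227, 158, 212, 241 and 243 CPM in diabetic libraries 1 to 5 and at 479.9, 585, 438, 382 and 458 CPM in untreated libraries 1 to 5. All diabetic libraries were below all untreated ones, with a log2 change of -1.11 (SE 0.16, adjusted p = 0.00117), and it was called in each of the 10 fits that left out 1 library. Smarca2 overlaps the genes 4931403E22Rik and Gm20616 on the opposite strand. The other lower genes were Phkb, a regulatory subunit of phosphorylase kinase (-0.71, adjusted p = 0.0304), and Fam208a, a subunit of the HUSH silencing complex (-0.58, 0.0333).

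Among the 14 higher genes of that class, Zmat3, a p53 target that binds RNA, was at 181, 174, 151, 148 and 132 CPM in diabetic and 84.9, 87.9, 79.9, 95.3 and 104 CPM in untreated libraries. The groups did not overlap, and the log2 change was 0.80 (SE 0.13, adjusted p = 0.00255). The uncharacterised C530008M17Rik was at 13.9, 28.1, 71.7, 3.07 and 12.9 CPM in diabetic and 0.911, 0.613, 0, 1.31 and 0.955 CPM in untreated libraries (log2 change 5.04, SE 0.78, adjusted p = 0.00234). C530008M17Rik overlaps A730089K16Rik and Gm7494 on the opposite strand. Gm16010 was at 63.4, 23.6, 44.6, 29.2 and 62.1 CPM in diabetic and 7.12, 13, 8.19, 12.9 and 11.6 CPM in untreated libraries (log2 change 2.08, adjusted p = 0.00192), and it overlaps Spsb4 on the opposite strand. Both genes were higher in every diabetic library than in any untreated one. Parp14, an ADP-ribosyltransferase induced by interferon, changed by 1.69 (adjusted p = 0.00688) and Rcan1, an inhibitor of calcineurin, 0.74 (0.0205). The other 9 were H2-K1, Bst2, Phlda3 and Thbs1, described below, with Diap1 (0.71 on the log2 scale), Plekha1 (0.50), Slc38a2, an amino acid transporter (0.80), Ddit4l, an inhibitor of mTOR (1.23), and Pappa, a protease of IGF binding proteins (1.69). These 5 lost the call without diabetic library 3, untreated library 2 or untreated library 3, and were called in 2 to 5 of the 10 fits that left out 1 library. The call of Phkb was lost without diabetic libraries 2, 3 or 5, or untreated libraries 2, 3 or 5 (adjusted p up to 0.101). For Fam208a, the call was lost without diabetic libraries 2 or 3, or untreated libraries 2, 3, 4 or 5 (adjusted p up to 0.139). Rcan1 was not called without diabetic library 3, or untreated libraries 2 or 3 (adjusted p up to 0.0644).

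Among androgen-regulated kidney genes, members fell and none rose. Of 16 tested, 7 were called lower and 0 higher (43.75%, against 0.448% of all genes called lower), 15 were negative and the median log2 change was -1.35. Slco1a1, an organic anion transporter of the tubule (chromosome 6, 141907282 to 141946962), was at 0, 1.49, 0.618, 0.614 and 0.469 CPM in diabetic libraries 1 to 5 and at 15.5, 50, 57, 17.8 and 6.68 CPM in untreated libraries 1 to 5. The diabetic libraries summed 45 counts against 2265 in untreated ones, and the log2 change was -5.52 (SE 0.87, adjusted p = 0.00332). Kap, kidney androgen-regulated protein, was at 143, 23.4, 28, 253 and 7.50 CPM in diabetic and 2120, 3032, 3105, 2019 and 1398 CPM in untreated libraries, a log2 change of -4.68 (SE 0.98, adjusted p = 0.0280). For both genes every diabetic library was below every untreated one.

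Cyp7b1, an oxysterol hydroxylase, was at 5.97, 0.175, 0.386, 1.79 and 0.885 CPM in diabetic and 11.6, 31.7, 26.2, 20.7 and 12 CPM in untreated libraries (log2 change -3.51, SE 0.64, adjusted p = 0.00692). Cyp2j13, a P450 of the epoxygenase subfamily, was at 20.2, 3.06, 3.40, 20.8 and 2.24 CPM in diabetic and 74.5, 158, 136, 81.4 and 41.3 CPM in untreated libraries (log2 change -3.31, adjusted p = 0.00635). For Cyp7b1 and Cyp2j13 every diabetic library was below every untreated one. Cyp4b1 (-1.84, adjusted p = 0.00177), and, named after their values were seen, Cyp4a12a (-1.55, 0.0333) and Hsd17b11 (-1.07, 0.0168) were the other called members. The call of Kap was lost without diabetic libraries 2, 3 or 5, or untreated libraries 2 or 3 (adjusted p up to 0.112). For Cyp4a12a, the call was lost without diabetic libraries 2, 3 or 5, or untreated libraries 1, 2, 3 or 4 (adjusted p up to 0.112). Hsd17b11 was not called without diabetic library 2, or untreated libraries 2 or 3 (adjusted p up to 0.0795). The list had 4 called members without diabetic library 2 or untreated library 2 or 3, 10 without diabetic library 1, and 6 without diabetic libraries 1 and 3. Leaving out each library in turn gave 4 to 10 members called lower and 0 to 1 called higher.

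Some markers of the proximal tubule fell as well. Of 23 tested, 4 were called lower and 0 higher (17.39%, against 0.448% of all genes called lower). Of the 23, 20 were negative and the median log2 change was -0.60. Their summed level was 11281, 10511, 12313, 6737 and 7237 CPM in diabetic libraries 1 to 5 and 12569, 18769, 18325, 14316 and 11755 CPM in untreated libraries 1 to 5, so the groups overlapped only between diabetic library 3 and untreated library 5. All 23 listed markers passed the filter on counts, and the part of tubule RNA in these results was not tested. Beside Kap and Cyp4b1, which are also androgen list members, the called markers were Acy3, an aminoacylase, and Ass1, the argininosuccinate synthase of arginine synthesis. Acy3 was at 214, 105, 165, 170.3 and 98.4 CPM in diabetic and 478, 793, 789.5, 447 and 444 CPM in untreated libraries (log2 change -1.97, SE 0.29, adjusted p = 0.00130), and Ass1 had a log2 change of -1.09 (SE 0.25, adjusted p = 0.0335). The call of Ass1 was lost without diabetic libraries 2, 3 or 5, or untreated libraries 1, 2, 3 or 5 (adjusted p up to 0.112). The proximal tubule marker Pck1, an enzyme of gluconeogenesis, was at 1660, 1803, 3377, 842 and 1242 CPM in diabetic and 2275, 2475, 2103, 1159 and 1434 CPM in untreated libraries, with a log2 change of -0.08 (adjusted p = 0.973). The list had 2 called members without diabetic library 2, 3 or 5 or untreated library 2 or 3, and 2 without diabetic libraries 1 and 3 together. With the proximal tubule score of each library (its mean log2 CPM of these markers) as a covariate, edgeR called 19 genes higher and 13 lower. At 24 weeks the score did not overlap between the groups (6.832 to 7.791 in diabetic and 8.006 to 8.635 in untreated libraries). It also includes called genes, so this fit cannot tell tubule RNA from the effect of the group.

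The genes that fell and are given next each had a TRAP ratio under 1. Cyp2e1, a P450 that oxidises ketones and ethanol, was at 91.5, 114, 99.6, 151 and 74 CPM in diabetic libraries 1 to 5 and at 491, 574, 696, 355 and 384 CPM in untreated libraries 1 to 5, and the groups did not overlap (log2 change -2.24, SE 0.30, adjusted p = 0.00117). Akr1c14, a hydroxysteroid dehydrogenase, changed by -3.16 (adjusted p = 0.00371), and Slc22a28, a transporter of the organic ion family with close copies, -3.06 (0.00488). The glucuronosyltransferases Ugt2b38 (-2.52) and Ugt2b37 (-2.31), which are close paralogs that can share reads, had adjusted p of 0.00130 and 0.00196. Inmt, an N-methyltransferase, had a change of -2.65 and Serpinf2, the plasmin inhibitor, one of -2.32 on the log2 scale (adjusted p = 0.0154 and 0.00371). Fcamr, a receptor for IgM, fell by 2.59 (adjusted p = 0.0228) and overlaps Gm15848 on the opposite strand, itself called lower. For Inmt, the call was lost without diabetic libraries 2, 3 or 5 (adjusted p up to 0.0567). Fcamr was not called without diabetic libraries 2, 3 or 5, or untreated libraries 2 or 3 (adjusted p up to 0.0772).

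Enzymes of acyl-CoA and ester metabolism were among the lowest p. Aacs, which activates acetoacetate, was at 43, 50.1, 58, 41.3 and 38.4 CPM in diabetic and 85.7, 157, 147, 92.4 and 126 CPM in untreated libraries (log2 change -1.40, SE 0.21, adjusted p = 0.00130). Nudt19, a coenzyme A hydrolase of the kidney, had -1.46 (adjusted p = 0.00192), the carboxylesterase Ces1f -1.93 (0.00192) and Keg1 -1.35 (0.00130). Nudt19 overlaps B230322F03Rik and Keg1 overlaps Gm15962 on the opposite strand. Each of Aacs, Nudt19, Ces1f and Keg1 was called in all 10 fits that left out 1 library.

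Drug-conjugating enzymes were among the largest rises. Ugt1a2, a glucuronosyltransferase (chromosome 1, 88200601 to 88218997), was at 61.4, 127, 146, 17.7 and 98.6 CPM in diabetic libraries 1 to 5 and at 0.399, 0.613, 1.28, 2.88 and 1.63 CPM in untreated libraries 1 to 5. The lowest diabetic library, number 4, was still above the highest untreated one, and the log2 change was 6.01 (SE 0.78, adjusted p = 0.00117). The genes of the Ugt1a cluster share their last exons, so reads can be split among them, and Dnajb3 lies within it on the opposite strand. Gsta1, a glutathione transferase, was at 6.91, 10.2, 12.3, 1.73 and 6.88 CPM in diabetic and 0, 0, 0.142, 0 and 1.07 CPM in untreated libraries, with 21 counts in all 5 untreated libraries together. Its log2 change was 4.90 (SE 0.87, adjusted p = 0.00500), and 7.61 without untreated library 5, which held most of those counts.

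Gsta2 was at 64.7, 171, 164, 55.1 and 101 CPM in diabetic and 7.86, 4.09, 12.9, 2.98 and 38.4 CPM in untreated libraries (log2 change 3.07, SE 0.68, adjusted p = 0.0370). The predicted gene Gm10639, named after its values were seen, had a log2 change of 3.61 (adjusted p = 0.0250). These genes are near-identical copies of the alpha class, so their separate values are uncertain. The call of Gsta2 was lost without diabetic libraries 2, 3 or 5, or untreated libraries 1, 2, 3 or 4 (adjusted p up to 0.129). For Gm10639, the call was lost without diabetic libraries 2, 3 or 5, or untreated libraries 2, 3 or 5 (adjusted p up to 0.0657). Mgst1, a membrane-bound glutathione transferase also named after its values were seen, had 1.70 (adjusted p = 0.00688), Cbr1, a carbonyl reductase, 2.17 (0.00523) and Abcc3, an efflux pump for conjugates, 2.29 (0.0130). Abcc3 was not called without diabetic library 3 (adjusted p up to 0.0537). Of 27 genes in the list of metallothionein and NRF2 antioxidant genes, edgeR called Gsta1 and Gsta2 higher (7.407%, against 0.448% of all genes). DESeq2 called 3 higher (against 1.96% of all genes) and limma 2 (against 0.356%). The median log2 change was 0.12, but -0.02 without diabetic library 3 and -0.06 without diabetic libraries 1 and 3. By symbol, a grouping made after the calls were seen, 2 of 42 tested P450 genes were called higher and 6 lower, 3 of 13 Ugt genes higher and 2 lower, and 3 of 22 glutathione transferase genes higher and 0 lower, against 0.448% of all genes in each direction.

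Fatty acid and PPAR target genes held calls in both directions. Of 30 tested, 2 were called higher and 1 lower (10%, against 0.897% of all genes), with a median log2 change of 0.39. Without diabetic library 4, 5 were called higher and 1 lower. DESeq2 gave the same counts (against 1.96% of all genes higher and 1.39% lower). Limma called 3 higher (against 0.356%) and 1 lower (against 0.51%). The median was 0.245 without diabetic library 3 and 0.15 without diabetic libraries 1 and 3. Cyp4a14, an omega-hydroxylase of fatty acids and a target of PPAR alpha, was at 128, 275, 339.9, 77.3 and 215 CPM in diabetic libraries 1 to 5 and at 34, 17.3, 6.55, 13 and 31.6 CPM in untreated libraries 1 to 5 (log2 change 3.33, SE 0.53, adjusted p = 0.00332). Its paralog Cyp4a10 was at 150.0, 252, 293, 83.6 and 212 CPM in diabetic and 67.1, 45.3, 70.8, 58.6 and 71.3 CPM in untreated libraries (log2 change 1.66, SE 0.25, adjusted p = 0.00146). Both were higher in every diabetic library, and reads can be shared among Cyp4a paralogs. Cd36, the fatty acid translocase, was at 10.4, 19.6, 17, 10.7 and 14.3 CPM in diabetic and 29.8, 56.6, 51.5, 34.3 and 30.6 CPM in untreated libraries, a log2 change of -1.50 (SE 0.25, adjusted p = 0.00332), with no overlap. Lpl, lipoprotein lipase, was outside the lists and chosen after its values were seen; it had a log2 change of -1.05 (adjusted p = 0.00205). Gc, which encodes the vitamin D binding protein that is filtered and taken up by the tubule, was at 67.7, 105, 112, 29.1 and 52.4 CPM in diabetic and 15.1, 5.92, 8.04, 12.6 and 15.1 CPM in untreated libraries (log2 change 2.69, SE 0.37, adjusted p = 0.00117). Cyp4a14, Cyp4a10, Cd36, Lpl and Gc were called in all 10 fits that left out 1 library.

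Among interferon-induced genes, Irf7, Ifit1, Ifit3 and Bst2 rose. All 28 tested had a positive log2 change, with a median log2 change of 1.22, 14 had an unadjusted p under 0.05, and 4 were called higher (14.29%, against 0.448% of all genes). DESeq2 called 7 of the list higher (against 1.96% of all genes) and limma 1 (against 0.356%). The promoters of the 3 called genes that hold an interferon-stimulated response element are printed to show where its letters lie, in windows of 250 bases before to 50 after the start from RefSeq on GRCm38.p6, with matches to GAAA, any 2 bases, then GAAA on either strand in capitals. They are Ifit1 at chr19:34640639-34640938 (plus strand), Ifit3 at chr19:34583279-34583578 (plus strand) and Bst2 at chr8:71537423-71537722 (minus strand).
Ifit1: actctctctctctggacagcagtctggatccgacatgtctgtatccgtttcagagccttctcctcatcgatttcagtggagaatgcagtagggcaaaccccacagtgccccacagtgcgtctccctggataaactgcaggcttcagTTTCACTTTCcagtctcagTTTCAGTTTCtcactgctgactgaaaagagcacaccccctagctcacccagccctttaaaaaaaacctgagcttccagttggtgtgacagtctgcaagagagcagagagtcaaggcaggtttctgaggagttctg
Ifit3: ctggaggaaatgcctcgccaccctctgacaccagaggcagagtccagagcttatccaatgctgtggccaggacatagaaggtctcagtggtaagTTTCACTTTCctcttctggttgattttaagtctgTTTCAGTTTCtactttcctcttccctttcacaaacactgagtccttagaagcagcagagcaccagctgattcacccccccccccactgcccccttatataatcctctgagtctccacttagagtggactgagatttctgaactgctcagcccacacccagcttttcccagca
Bst2: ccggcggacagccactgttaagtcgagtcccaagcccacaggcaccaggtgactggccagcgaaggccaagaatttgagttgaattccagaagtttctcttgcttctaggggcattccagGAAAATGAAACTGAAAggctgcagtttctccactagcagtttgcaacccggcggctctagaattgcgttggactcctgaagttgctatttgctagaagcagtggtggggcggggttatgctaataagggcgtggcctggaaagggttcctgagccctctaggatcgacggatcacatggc
Each window held 2 matches, and for Bst2 the matches share bases. The window of Irf7 at chr7:141266375-141266674 held none. The element was found in 12 of 24 windows of the tested list genes (20 genes matched a window), and in 3.17% of the 14292 windows of genes tested.

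Irf7, the transcription factor that amplifies interferon responses (chromosome 7, 141262706 to 141266481), was at 78.4, 32.8, 44.6, 24.5 and 31.2 CPM in diabetic libraries 1 to 5 and at 7.34, 5.11, 5.98, 10.8 and 5.50 CPM in untreated libraries 1 to 5. Diabetic library 1 was the highest and no values overlapped; the log2 change was 2.60 (SE 0.38, adjusted p = 0.00130). Irf7 overlaps Phrf1 on the opposite strand. Ifit1, an antiviral protein that binds foreign RNA, was at 13.1, 20.4, 57.6, 11.1 and 14.7 CPM in diabetic and 5.35, 2.52, 4.13, 6.80 and 8.03 CPM in untreated libraries (log2 change 2.11, SE 0.47, adjusted p = 0.0304). Ifit3, its partner, was at 25.2, 29.6, 68.7, 18.5 and 23.8 CPM in diabetic and 9.62, 15.7, 7.62, 9.73 and 19.2 CPM in untreated libraries (log2 change 1.42, adjusted p = 0.0393). Bst2, a tether of enveloped viruses, was at 20.6, 23.5, 70.8, 20 and 25.7 CPM in diabetic and 14.8, 10.3, 4.77, 14.7 and 12.8 CPM in untreated libraries (log2 change 1.48, adjusted p = 0.0450). Diabetic library 3 was the highest of the 10 for Ifit1, Ifit3 and Bst2, and only Ifit3 overlapped between the groups. Ifit3 lies beside a close copy, Ifit3b, with which it can share reads.

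The summed level of the interferon list was 512, 461, 1544, 512 and 687 CPM in diabetic libraries 1 to 5 and 412, 279, 282, 343 and 498 CPM in untreated libraries 1 to 5. Diabetic library 3 was far above the rest, and diabetic library 2 was below untreated library 5. Without diabetic library 3, 1 member was called (Irf7), the median log2 change was 0.61 and that of Bst2 was 0.97. The list also had 1 called member without untreated library 1, 2 or 3, and 2 without diabetic library 2 or 5 or untreated library 4. Without diabetic library 4 it had 6. The call of Ifit1 was lost without diabetic libraries 2 or 3, or untreated libraries 1, 2 or 3 (adjusted p up to 0.123). For Ifit3, the call was lost without diabetic libraries 2, 3 or 5, or untreated libraries 1, 2, 3 or 4 (adjusted p up to 0.173). Bst2 was not called without diabetic libraries 2, 3 or 5, or untreated libraries 1, 2, 3, 4 or 5 (adjusted p up to 0.192). Without diabetic libraries 1 and 3 the median was 0.74 and Irf7 was the called member (log2 change 2.10, adjusted p = 0.00942). Oasl1, a member of the oligoadenylate synthetase family outside the list and named after its values were seen, had a log2 change of 2.67 (adjusted p = 0.0150). The call of Oasl1 was lost without diabetic library 3, or untreated library 2 (adjusted p up to 0.0688). Lgals3bp, a secreted glycoprotein, was at 84.8, 111, 176, 42.1 and 73.8 CPM in diabetic and 15.4, 17.6, 14.7, 33.2 and 23.1 CPM in untreated libraries (log2 change 2.22, SE 0.40, adjusted p = 0.00605).

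Genes of antigen presentation were positive in all 20 tested, with a median log2 change of 0.98. EdgeR called 2 of them higher (10%, against 0.448% of all genes). DESeq2 called 7 of the 20 higher (against 1.96% of all genes) and limma 0 (against 0.356%). H2-K1, a class I heavy chain, was at 193, 238, 721, 242 and 359 CPM in diabetic and 147, 108, 126, 149 and 214 CPM in untreated libraries (log2 change 1.24, SE 0.27, adjusted p = 0.0304). Cd74, the class II invariant chain, was at 215, 249, 1004, 248 and 259 CPM in diabetic and 126, 102, 106, 198 and 173 CPM in untreated libraries (log2 change 1.49, SE 0.35, adjusted p = 0.0423). Diabetic library 3 was the highest for both genes, and the other diabetic libraries were above all untreated ones for Cd74 but not for H2-K1. The list had 0 called members without diabetic library 3 or untreated library 1, 2 or 3, 1 without diabetic library 5 or untreated library 4 or 5, and 0 without diabetic libraries 1 and 3 together. Without diabetic library 3 the median of the list was 0.50, the log2 change of Cd74 0.79 and that of H2-K1 0.80. For H2-K1, the call was lost without diabetic libraries 3 or 5, or untreated libraries 1, 2, 3 or 4 (adjusted p up to 0.110). Cd74 was not called without diabetic library 3, or untreated libraries 1, 2, 3 or 5 (adjusted p up to 0.140). H2 class I genes are close paralogs that can share reads.

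Markers of macrophages were positive in 15 of 15 genes with a median log2 change of 0.83. EdgeR called 0 of them, with 4 at an unadjusted p under 0.05 (against 10.7% of all genes), and 1 without untreated library 4. DESeq2 called 1 of the markers higher (against 1.96% of all genes) and limma 0 (against 0.356%). Their sum was 172, 208, 285, 171 and 137 CPM in diabetic and 93.8, 125, 98.7, 159 and 107 CPM in untreated libraries, so diabetic library 5 was the only one under the highest untreated library. Lyz2, lysozyme of myeloid cells, had 1.22 (adjusted p = 0.159), C1qa of the C1 complex 0.99 (0.168) and the immunoglobulin light chain Igkc, a lymphocyte marker, 1.42 (0.148) as log2 changes. Of the markers listed, 15 of 15 for macrophages and 9 of 14 for lymphocytes passed the filter on counts. The part of immune cell RNA in the interferon and antigen presentation results was not tested.

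Of 21 complement genes, edgeR called C3 higher (4.762%, against 0.448% of all genes), and the median of the list was 0.62. It called 2 without diabetic library 4 or untreated library 4. DESeq2 called 2 higher (against 1.96% of all genes) and limma 1 (against 0.356%). C3, the central protein of the cascade (chromosome 17, 57203970 to 57228136), was at 254, 674, 832, 219.5 and 321 CPM in diabetic libraries 1 to 5 and at 80.2, 46.2, 55.1, 183 and 81.8 CPM in untreated libraries 1 to 5. The groups did not overlap, although untreated library 4 was close to diabetic library 4; the log2 change was 2.37 (SE 0.39, adjusted p = 0.00358), and it was called in all 10 fits that left out 1 library. Of 16 markers of tubular injury, 15 were positive with a median of 0.93. Spp1 and Krt20 were called higher (12.5%, against 0.448% of all genes). Spp1, osteopontin, was at 358, 662, 835, 338 and 352 CPM in diabetic and 129.6, 104, 97, 407 and 188 CPM in untreated libraries, where untreated library 4 overlapped the diabetic range (log2 change 1.46, SE 0.34, adjusted p = 0.0370). Krt20, a keratin of injured tubules, was at 5.22, 4.37, 21.5, 3.63 and 2.60 CPM in diabetic and 1.54, 0.136, 0.783, 1.83 and 0.955 CPM in untreated libraries (log2 change 2.80, SE 0.65, adjusted p = 0.0380). The call of Spp1 was lost without diabetic libraries 2 or 3, or untreated libraries 1, 2, 3 or 5 (adjusted p up to 0.136). For Krt20, the call was lost without diabetic libraries 2 or 3, or untreated libraries 1, 2, 3 or 5 (adjusted p up to 0.178). Without diabetic libraries 1 and 3 the list had 0 called members and a median of 0.91.

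Parietal epithelial markers, of the cells that line Bowman's capsule, were positive in 10 of 10, with a median of 0.77 and sums of 409 to 993 CPM in diabetic and 346 to 473 CPM in untreated libraries. EdgeR called 1 of the 10 higher (10%, against 0.448% of all genes). It was Akap12, a scaffold of protein kinase A, at 90, 164, 184, 53 and 99.8 CPM in diabetic and 26.2, 33.3, 34, 37.9 and 29.3 CPM in untreated libraries (log2 change 1.88, SE 0.33, adjusted p = 0.00500). The parietal and injury lists share 4 genes (Krt8, Krt18, Krt19 and Cd44). Calb1, calbindin of the distal tubule, was the 1 member of 13 loop and distal markers called (7.692%, against 0.448% of all genes called higher). Its log2 change was 1.05 (SE 0.25, adjusted p = 0.0464). Calb1 was not called without diabetic libraries 2, 3 or 5, or untreated libraries 1, 3, 4 or 5 (adjusted p up to 0.172). Collecting duct markers had a median of 0.62 with 0 of 11 called.

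Among genes of p53, apoptosis and senescence, Zmat3, Phlda3, Gdf15 and Eda2r rose. Of 23 tested, 4 were called higher and 0 lower (17.39%, against 0.448% of all genes called higher). Of the 23, 19 were positive and the median log2 change was 0.43. The summed level was 1199, 1132, 1141, 1083 and 993 CPM in diabetic and 816, 816, 813, 793 and 943 CPM in untreated libraries, with no overlap. Besides Zmat3, described above, the called genes were Phlda3, Gdf15 and Eda2r. Phlda3, an inhibitor of AKT, was at 23.1, 36.4, 31.5, 45 and 19.4 CPM in diabetic and 12.2, 8.10, 8.69, 25.1 and 13.9 CPM in untreated libraries, where untreated library 4 overlapped (log2 change 1.19, SE 0.27, adjusted p = 0.0333). Gdf15, a stress hormone that is also a target of the integrated stress response, was at 29, 25, 23.2, 10.1 and 17.2 CPM in diabetic and 2.45, 4.09, 6.34, 4.34 and 1.35 CPM in untreated libraries (log2 change 2.50, SE 0.55, adjusted p = 0.0304). Eda2r, the ectodysplasin A2 receptor, was at 1.87, 3.50, 5.56, 4.58 and 4.06 CPM in diabetic and 0.740, 0, 0, 1.31 and 1.12 CPM in untreated libraries (log2 change 2.57, SE 0.61, adjusted p = 0.0444). The call of Phlda3 was lost without diabetic libraries 2, 3 or 4, or untreated libraries 1, 2, 3 or 5 (adjusted p up to 0.123). For Gdf15, the call was lost without diabetic libraries 1, 2, 3 or 5, or untreated libraries 1, 2 or 5 (adjusted p up to 0.0821). Eda2r was not called without diabetic libraries 2, 3, 4 or 5, or untreated libraries 1, 2, 3 or 5 (adjusted p up to 0.122). Zmat3 was called in all 10 fits that left out 1 library, and was the 1 called member of the list without diabetic libraries 1 and 3.

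In the integrated stress response list, Gdf15 and Phgdh, the first enzyme of serine synthesis, were called higher (9.091% of 22). Of the 22, 21 were positive, with a median of 0.35. The share of all genes called higher was 0.448%, here and for the other lists of this paragraph. Phgdh was at 9.89, 20.6, 17.5, 9.94 and 11.6 CPM in diabetic and 7.80, 7.76, 3.27, 5.70 and 3.37 CPM in untreated libraries (log2 change 1.31, SE 0.32, adjusted p = 0.0473). Of 28 genes of glycolysis and glucose handling, 25 were positive with a median of 0.40, and 1 was called (3.571%). It was Pfkp, the platelet isoform of phosphofructokinase, at 76, 92.6, 139.8, 39.4 and 61.6 CPM in diabetic and 23.4, 31.5, 26.3, 35.9 and 31.8 CPM in untreated libraries (log2 change 1.46, SE 0.27, adjusted p = 0.00708); it overlaps Pitrm1 on the opposite strand. Thbs1, an activator of latent TGF-beta, was the 1 of 26 TGF-beta and fibrosis genes called (3.846%), at 1.06 (SE 0.26, adjusted p = 0.0484). Sgk1, a kinase induced by corticoids, was the 1 of 18 genes of the renin, natriuretic and corticoid list called (5.556%), at 1.12 (SE 0.25, adjusted p = 0.0296). The call of Phgdh was lost without diabetic libraries 2, 3 or 5, or untreated libraries 2, 3, 4 or 5 (adjusted p up to 0.163). For Thbs1, the call was lost without diabetic libraries 2, 3 or 5, or untreated libraries 1, 2, 3 or 5 (adjusted p up to 0.168). Sgk1 was not called without diabetic libraries 1, 2, 3 or 5, or untreated libraries 3 or 5 (adjusted p up to 0.0969).

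**Figure D4:**
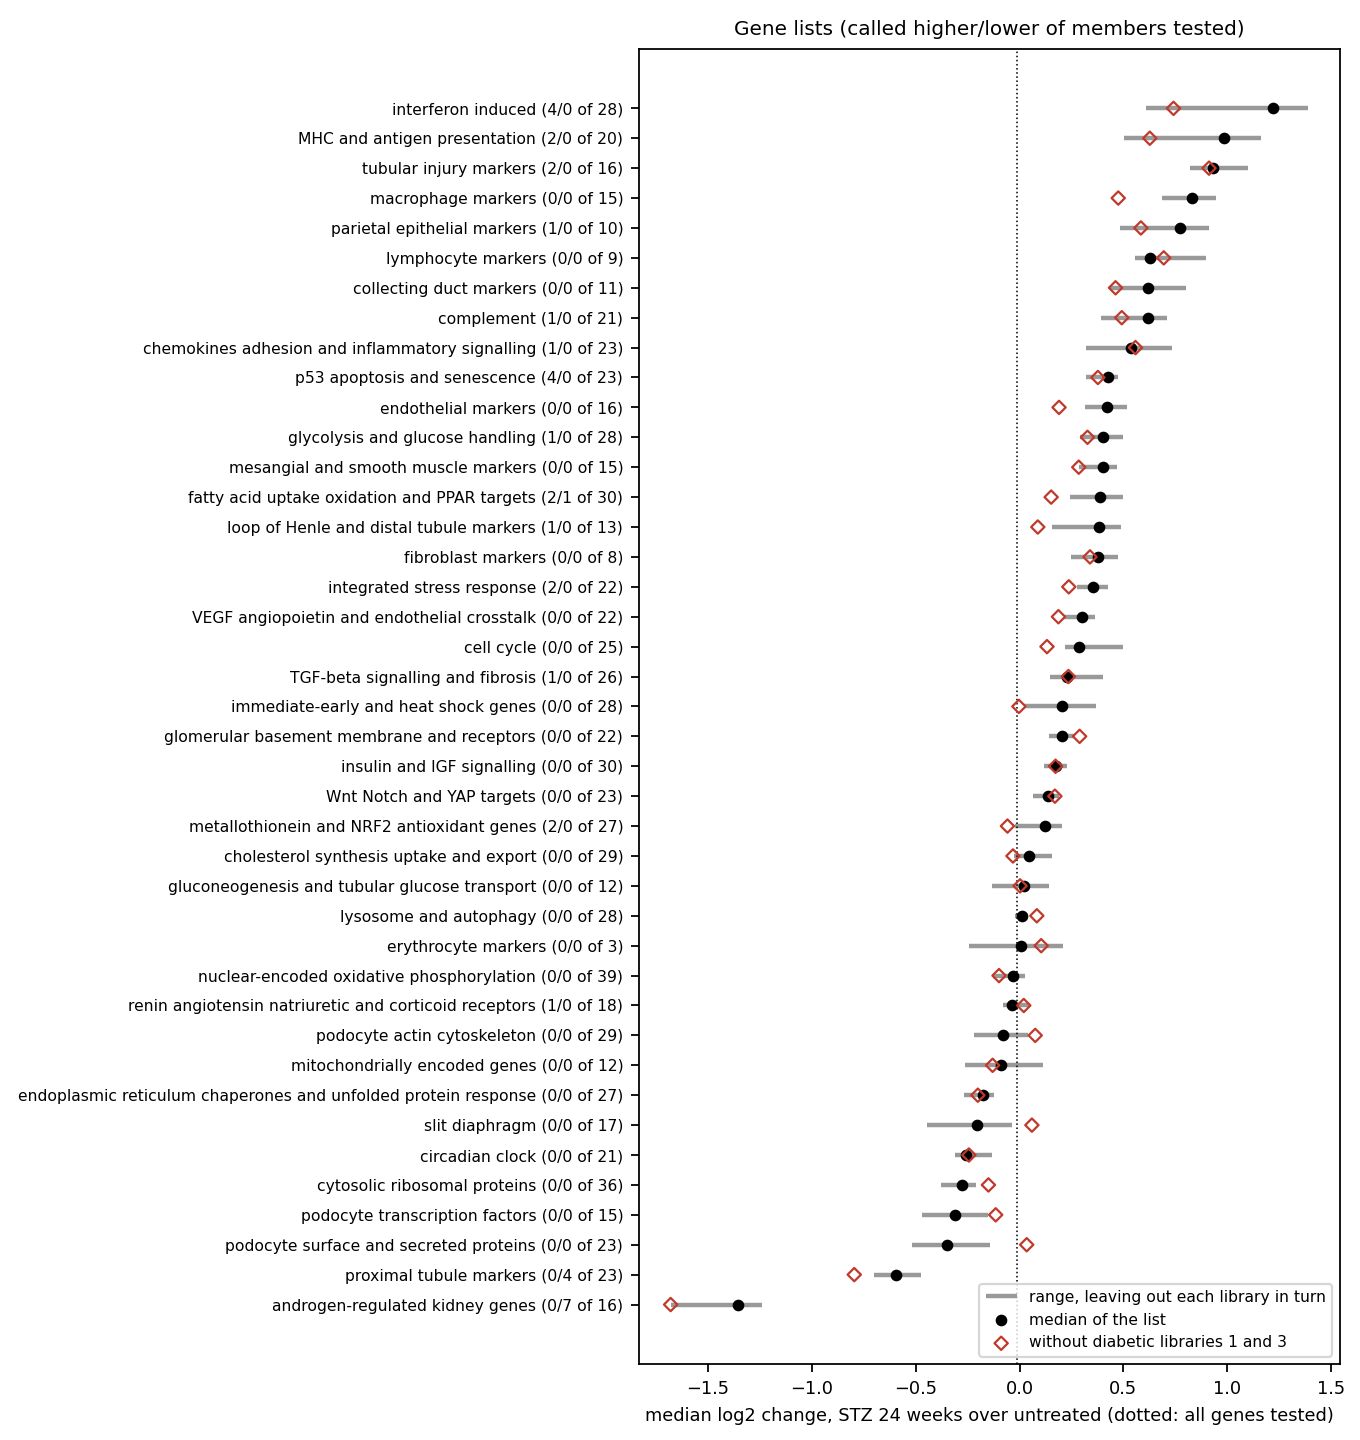
Median log2 change of each of 41 gene lists at 24 weeks of STZ over untreated (horizontal axis), with the range when each library was left out in turn (grey) and without diabetic libraries 1 and 3 (open diamonds); brackets give members called higher and lower of those tested, and the dotted line is the median of all genes (-0.01). The interferon median ran from 0.61 to 1.39 in the grey range. The podocyte surface median was 0.03 without diabetic libraries 1 and 3, which had the lowest podocyte sums.

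In 25 of the 41 lists edgeR called no member. DESeq2 called 1 or 2 members in 7 of these 25 lists: basement membrane 1 higher, insulin and IGF signalling 1 lower, cholesterol 2 lower, cell cycle 2 higher, lysosome 2 higher, macrophage markers 1 higher and lymphocyte markers 1 higher. Over all genes DESeq2 called 3.35% and limma 0.866%. Limma called none in any of the 25. Beside the 5 podocyte lists, these included the circadian clock with a median of -0.26, where Arntl had 2.19 (adjusted p = 0.212) and the clock output factor Tef -0.52 (0.219). They also included insulin and IGF signalling (0.18; Igfbp4 -0.80, 0.0936), the cell cycle (0.29; Ccnd2 0.77, 0.0659), and cholesterol synthesis and transport (0.04; Cyp51 -0.83, 0.103). VEGF and angiopoietin genes had a median of 0.30, with Angptl2 at -0.82 (adjusted p = 0.391), and lysosome genes one of 0.01, with the protease Ctsd at 0.82 (0.0755). Nuclear genes of oxidative phosphorylation had a median of -0.03 with 0 of 39 at an unadjusted p under 0.05. Endothelial markers had 0.42 (Pecam1 0.51, adjusted p = 0.427; Plvap 1.01, 0.202) and mesangial markers 0.40 (Pdgfrb 0.33, 0.802).

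The 24-week comparison was set beside the one at 3 weeks of STZ to ask which changes were seen at both times; the 2 comparisons have no library in common. At 3 weeks edgeR called 1058 of 16279 genes (6.5%), 616 higher (3.78%) and 442 lower (2.72%). Of the 146 genes called at 24 weeks, 115 were also called at 3 weeks in the same direction (78.77% of the 24-week calls and 10.87% of the 3-week calls), 55 higher and 60 lower. None was called in the opposite direction, and 144 had the same sign. Acsf2 had a log2 change of 1.83 at 24 weeks and 1.99 at 3 weeks, Slco1a1 -5.52 and -6.76, Kap -4.68 and -4.01, Cyp7b1 -3.51 and -3.05, Irf7 2.60 and 2.34, and Zmat3 0.80 and 0.78. The size of the change was smaller at 24 weeks in 76 of the 146 genes.

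Among the 31 genes not called at 3 weeks, Abcc3 stood at 2.29 at 24 weeks and 0.55 at 3 weeks (adjusted p = 0.558 at 3 weeks), Sgk1 1.12 and 0.25 (0.655), Phgdh 1.31 and 0.92 (0.109), and Ifit3 1.42 and 1.02 (0.0860). A difference between the times was tested for every gene as an interaction, the 24-week effect minus the 3-week effect. No gene was called by edgeR (0%), while 1092 had an unadjusted p under 0.05 (6.71%; 447 positive, 2.75%, and 645 negative, 3.96%). DESeq2 called 64 (0.393%) and limma on log2 FPKM called 2 (0.0123%). Leaving out diabetic library 3, untreated library 2 or untreated library 3 gave 1 call each.

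The interaction with the lowest p in the positive direction was G6pc, glucose-6-phosphatase of gluconeogenesis. G6pc had a log2 change of 0.04 at 24 weeks and -2.96 at 3 weeks, a difference of 3.00 (edgeR adjusted p = 0.125). Pck1 had -0.08 at 24 weeks and -2.03 at 3 weeks, a difference of 1.95 (edgeR adjusted p = 0.224). In the negative direction Gpt2, an alanine aminotransferase, had 0.31 at 24 weeks and 2.07 at 3 weeks (difference -1.76, edgeR adjusted p = 0.194). Eda2r had the lowest p (difference -6.85, edgeR adjusted p = 0.125), but at 3 weeks it had 151 to 438 counts in diabetic libraries and 1 count in the 4 untreated libraries together. Its fitted changes there therefore depend on the prior count, and the ratio of the summed counts over library totals was 1117 (95% exact interval 200.1 to 44131, counting error only).

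The medians of lists are given side by side for the 2 times, with no test of the difference. Over all genes edgeR called 3.78% higher and 2.72% lower at 3 weeks, and 0.448% in each direction at 24 weeks. DESeq2 called 1.96% of all genes higher at 24 weeks. The median of cell cycle genes was 0.29 at 24 weeks (0 of 25 called by edgeR, 3 at an unadjusted p under 0.05, 2 called higher by DESeq2 and 0 by limma) and 1.36 at 3 weeks (11 higher). Chemokine and inflammatory genes had 0.54 at 24 weeks (1 of 23 called, Spp1) and 1.70 at 3 weeks (10 higher), and interferon genes 1.22 (4 higher) and 1.44 (15 higher). Proximal tubule markers had -0.60 at 24 weeks (4 lower) and -1.08 at 3 weeks (15 lower), and androgen-regulated genes -1.35 (7 lower) and -1.91 (12 lower, 1 higher). Podocyte lists together had -0.16 at 24 weeks (0 called) and -0.17 at 3 weeks (7 higher, 1 lower of 104). These 8 calls of 104 genes at 3 weeks were near the share of 6.5% over all genes.

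**Figure D5:**
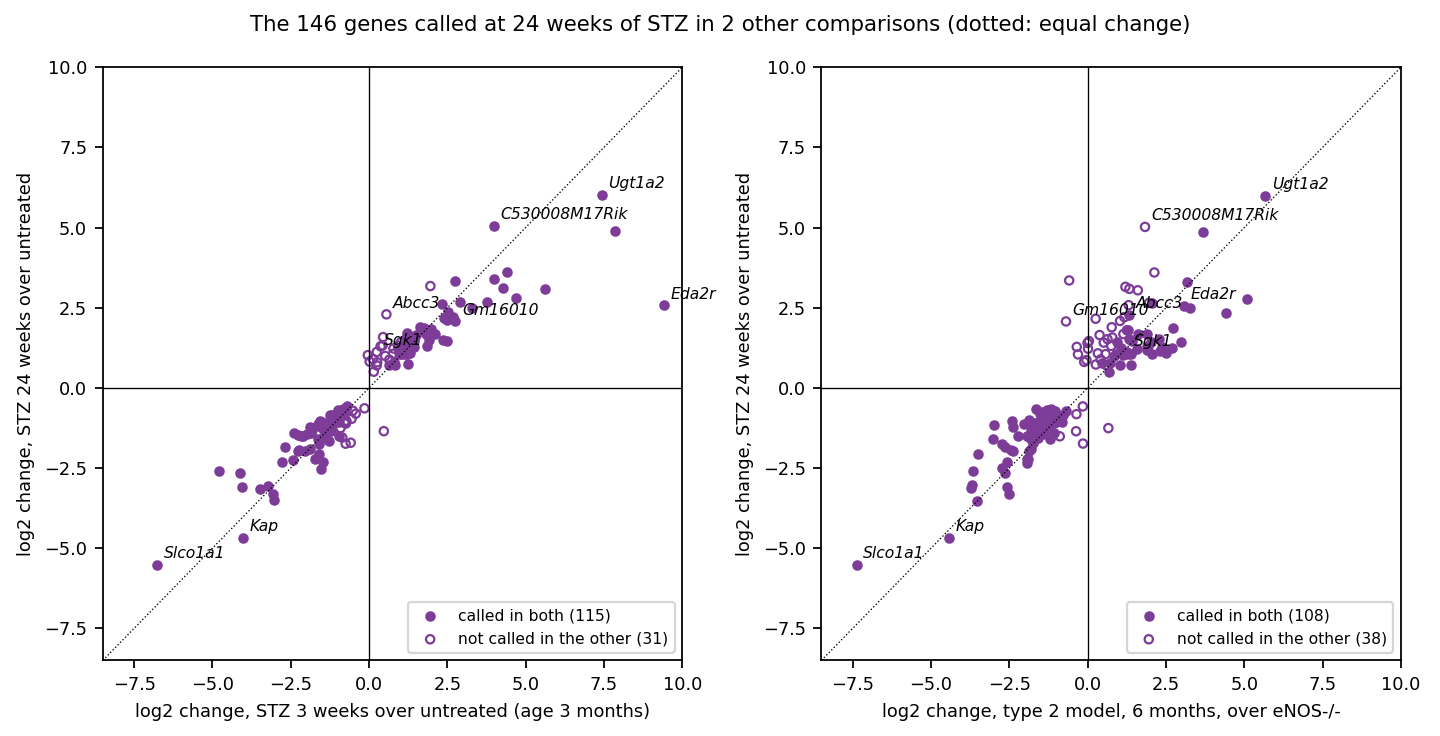
Log2 change at 24 weeks of STZ (vertical axes) against that at 3 weeks of STZ (left) and that of the type 2 model at 6 months (right) for the 146 genes called at 24 weeks; filled points are also called in the other comparison (115 and 108), and dotted lines mark equal change. Most points lie in the quadrants of the same sign, with Gm16010 above 0 in STZ and below 0 in the type 2 model on the right.

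The late stage of the type 2 model was compared in a fit of all 36 TRAP libraries, which tested 18511 genes; it shares no library with the 24-week comparison. In that fit 271 genes were called at 24 weeks of STZ (1.46%; 151 higher, 0.816%, and 120 lower, 0.648%) and 2957 at 6 months in the type 2 model (16%; 1378 higher, 7.44%, and 1579 lower, 8.53%). Of the 146 genes, 108 were called in the same direction in the type 2 model (73.97% of the 146, and 3.733% of the 2893 type 2 calls among genes tested in both fits), 41 higher and 67 lower, and none in the opposite direction. C3 had a log2 change of 2.35 in STZ and 4.42 in the type 2 model, Slco1a1 -5.51 and -7.38, C1qtnf3 -1.74 and -2.75, and Smarca2 -1.12 and -2.03. Nphs1 had -0.56 in STZ and -2.39 in the type 2 model, a difference of 1.83 (adjusted p = 0.0834).

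The difference between the 2 late effects, STZ minus type 2, was called for 81 of 18511 genes (0.438%), 48 positive (0.259%) and 33 negative (0.178%). The age, the eNOS deletion and the STZ treatment differ between the models as well, so their part cannot be told apart from that of the kind of diabetes. Slc22a19, an organic anion transporter, had a log2 change of -0.12 in STZ and -4.34 in the type 2 model, a difference of 4.22 (adjusted p = 0.000114). Differences were also positive for Slc39a8, a zinc and manganese transporter (1.99, adjusted p = 0.00921), Serpina1f (1.73, 0.0127), the aspartic protease Napsa (1.86, 0.0187) and Gm16010 (2.76, 0.0187). They were negative for Net1, a guanine nucleotide exchange factor (-1.17, 0.00921), Gnb2l1, the ribosome-bound scaffold RACK1 (-1.97, 0.00921), Arhgap11a (-2.54, 0.0111), the p53 target Pmaip1 (-1.97, 0.0286) and Vat1 (-1.01, 0.0286). Gm16010 was also called at 24 weeks, with 2.07 in STZ and -0.69 in the type 2 model. Leaving out each of the 10 libraries of 24 weeks in turn gave 12 to 99 calls. There were 12 without diabetic library 5, 12 without untreated library 1 and 15 without untreated library 4. There were 31 without diabetic library 2 and 34 without untreated library 3. No library of the type 2 model was left out. Of its 3 diabetic libraries at 6 months, number 3 had 6702120 counts, the lowest total of the series.

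The threshold divided genes with similar values. Just inside it were Tchhl1 (adjusted p = 0.0474), Thbs1 (0.0484) and Lypla1 (0.0492), and just outside it Odc1, an androgen-regulated enzyme of polyamine synthesis (0.0501), Cp, ceruloplasmin (0.0505), and Apoc3 (0.0507). Tchhl1 and Lypla1 were called in 2 of the 10 fits that left out 1 library.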

How the data were processed

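Podocyte TRAP libraries, made with a NuGEN Ovation kit per the labels' protocol, were sequenced, and the authors deposited a table of whole-number read counts per gene with gene length in bases, and a table of FPKM values; per the submitters' processing notes, reads went through FastQC, cutadapt 1.16, STAR and featureCounts 1.15.2. The build named there is mm9, but 99.981% of the 31871 genes matched to GENCODE M21 lie at their GRCm38 place, so GRCm38 is given. All deposited FPKM values agreed within 0.001 with those computed from the counts. Samples were grouped by the labels, and the members and gene lists were chosen with earlier results of these data known. Counts were fitted with edgeR 4.0.16 (TMM, filterByExpr, robust quasi-likelihood, Benjamini-Hochberg adjustment at 0.05, R 4.3.3) over the 19 libraries of the type 1 model, which share 1 estimate of the spread, and over all 36 TRAP libraries for the type 2 comparison. CPM was computed with TMM library sizes, except for TRAP enrichment. That ratio used CPM by library total, without TMM, plus 0.5.

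DESeq2 1.42.0, limma 3.58.1 on log2 FPKM plus 1 or 0.1, other scalings and filters and the replicate block were alternatives. So were tissue scores as covariates and leaving out each of the 10 libraries of 24 weeks, but no library of another group. Leaving out diabetic libraries 1 and 3 together was chosen after seeing the data. The 10 libraries of 24 weeks differ in depth by less than 2 times.

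Named genes were the 12 called genes with the largest change in each direction among those with a mean of at least 10 CPM and no overlap of groups, the 10 with the lowest p in each direction, up to 4 called members of each list (or the 2 with the lowest p), the 5 with the lowest p in each direction of each difference, and 10 check genes; some were left out for space. Promoter sequences are those of RefSeq. Figures were drawn with matplotlib 3.10.9 in Python 3.11.15.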

Additional observations from a re-analysis of the deposited data

Results flagged for a closer look

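In 230 groups of 5 libraries, 5 held a library whose gap to its nearest neighbour exceeded the critical 0.71 of the range on the log2(CPM + 1) scale; chance gives this in about 1 in 20 groups. Bst2 was at 70.8 CPM and Cd74 at 1004 CPM in diabetic library 3, far above the other diabetic libraries. Gsta1 was at 1.07 CPM in untreated library 5, above the other untreated libraries. Rcan1 was at 71.9 CPM in untreated library 2 and Ctsd at 362 CPM in untreated library 4, each apart from the other untreated libraries.

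The effect of STZ at 24 weeks differed from that of the type 2 model at 6 months, by edgeR's test of the difference, for 12 of the genes named. The difference (log2, STZ minus type 2) was 4.22 for Slc22a19, 2.76 for Gm16010, 1.99 for Slc39a8, 1.86 for Napsa, 1.73 for Serpina1f, 1.42 for Cyp51, a sterol demethylase, and 1.37 for Lpl. It was -2.54 for Arhgap11a, -1.97 for Gnb2l1, -1.97 for Pmaip1, -1.17 for Net1 and -1.01 for Vat1.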

How the results depend on the processing

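The counts at 24 weeks were 73 higher and 73 lower. DESeq2 called 251 higher and 178 lower, the replicate block 35 higher and 47 lower, and the 19-library fit without diabetic libraries 1 and 3 called 17 higher and 45 lower. A proximal tubule score as covariate, which at 24 weeks did not overlap between the groups, gave 19 higher and 13 lower. A podocyte score gave 114 higher and 228 lower, and a fit restricted to genes with a TRAP ratio of at least 1 gave 4 higher and 1 lower. All 36 libraries in 1 fit gave 151 higher and 120 lower. Leaving out each library gave 25 to 169 higher and 39 to 93 lower. In those fits the podocyte median ran from -0.294 to -0.0231, with 0 called. It was 0.0975 without diabetic libraries 1 and 3, which had the lowest podocyte sums. DESeq2 called 1 podocyte gene. For 24 weeks minus 3 weeks, 0 calls became 64 with DESeq2, 14 with all 36 libraries, 2 and 4 with limma on FPKM at pseudocounts 1 and 0.1, 1 with the replicate block, 1 without diabetic libraries 1 and 3, and 0 to 1 without each library. For STZ minus type 2, 81 calls became 22 with no filter, 184 with a mean of at least 5 CPM and 3 with the replicate block. They became 495 with DESeq2 and 320 with limma at pseudocount 1. There were 173 without diabetic libraries 1 and 3, and 12 to 99 without each library of 24 weeks in turn.

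Deviations from the group mean of log2(CPM + 1) were correlated between same-numbered libraries, and passed 0.1 in 1 of 5 pairs. The correlations were -0.31, 0.069, 0.088, -0.099 and 0.49 for numbers 1 to 5. Numbers 2 and 5 alone matched best with their own number. The labels give only a number, so what the replicate block stands for is not known. Of 70 called genes named, 2 (Smarca2 and Gm16010) were called under all 25 settings and 4 (Ugt1a2, Gc, Irf7 and Acsf2) under all 24 in which they were tested, and none of 115 genes named changed sign with a call under any. The median log2 change of all genes was -0.01 with TMM and with RLE, and 0.00171 with library totals. The cause of these changes was not tested.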
